A study of Caenorhabditis elegans with 6 samples.

Results

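The genes described here encode translation initiation and elongation factors of *Caenorhabditis elegans*. They were chosen by name: a platform gene symbol that begins with eif-, ife-, iff-, ifg-, eef- or eft- and goes on with a digit. This gave 36 genes among 17118 measured, 30 of them initiation factors and 6 elongation factors, and no symbol with the prefix eft- was on the platform. Where a gene had several probe sets, the brightest by its mean over all arrays was read. RNA came from whole larvae of the last larval stage (L4), synchronized and grown at 25 °C on bacterial food, hybridized to 3 arrays for worms carrying the alg-1(gk214) allele and 3 for the wild type strain N2, which carries no allele or agent. The series concerns genes targeted by ALG-1, an Argonaute protein that carries microRNAs to the mRNAs they repress. The allele is present in all cells of the mutant. In RNA of whole worms fewer cells of a type and less RNA per cell cannot be told apart. RefSeq holds 3 further genes with such names that were not described: eif-1 shares its probe set with another gene, and eif-2alpha and eif-3.L had no probe set with their identifier.

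Translation starts when eIF2, bound to GTP, brings the initiator tRNA to the small ribosomal subunit, on which the many-subunit complex eIF3 sits. eIF4E binds the mRNA cap and, with the scaffold eIF4G and the helicase eIF4A, recruits that subunit, while eIF2B recharges eIF2 with GTP after each round. During elongation eEF1A delivers charged tRNAs, the eEF1B complex recharges eEF1A, and eEF2 moves the ribosome along by a codon. Several of these factors are encoded by more than 1 gene in the worm, some of them used mainly in the germline.

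Array medians lay between 6.01 and 6.05 log2. Pearson correlations over all probe sets were 0.998 within the mutant, 0.994 to 0.996 within the wild type and 0.968 to 0.976 between them. The alg-1 probe set, whose position relative to the deletion was not checked, read 5.90, 6.08 and 6.09 in the mutant against 6.80, 6.83 and 6.65 (change −0.73, limma's adjusted p = 0.000245). The wild type replicate 3 array stood apart in the 3′ minus 5′ difference of the GAPDH control, at −0.58 log2 against −0.23 to −0.14 on the others. Defining markers of muscle, intestine, neurons, hypodermis and germline were above the 25th percentile of all values on some array, other than rgef-1 for neurons and nos-2 for the germline.

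Most initiation factors were lower in the mutant, and most elongation factors did not pass the test. Of the 30 initiation factors, 21 fell, 0 rose and 9 did not pass (limma, Benjamini-Hochberg adjusted p under 0.05 over all probe sets). Over all genes 20.1% fell and 14.4% rose, 34.6% in all. Over all probe sets these shares were 18.9% and 14.8%, 33.7% in all. Among genes above the median expression, where 35 of the 36 factors lie, 26.9% fell and 22.2% rose, 49.2% in all. The median change was −0.28 log2 for initiation factors against −0.06 for all genes. Of the 6 elongation factors 1 fell and 0 rose, with a median of −0.04. All changes were small, and none reached 2-fold, which 5.14% of all genes did among those past the threshold. The largest fall was 1.66-fold. In 29 of the 36 factors the groups did not overlap, against 48.7% of all genes and 64.0% of those above the median expression. The number of initiation factors that fell was 12 without mutant replicate 3 and 21 without wild type replicate 3. Over all genes 14.5% and 18.6% fell in these fits.

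**Figure D1:**
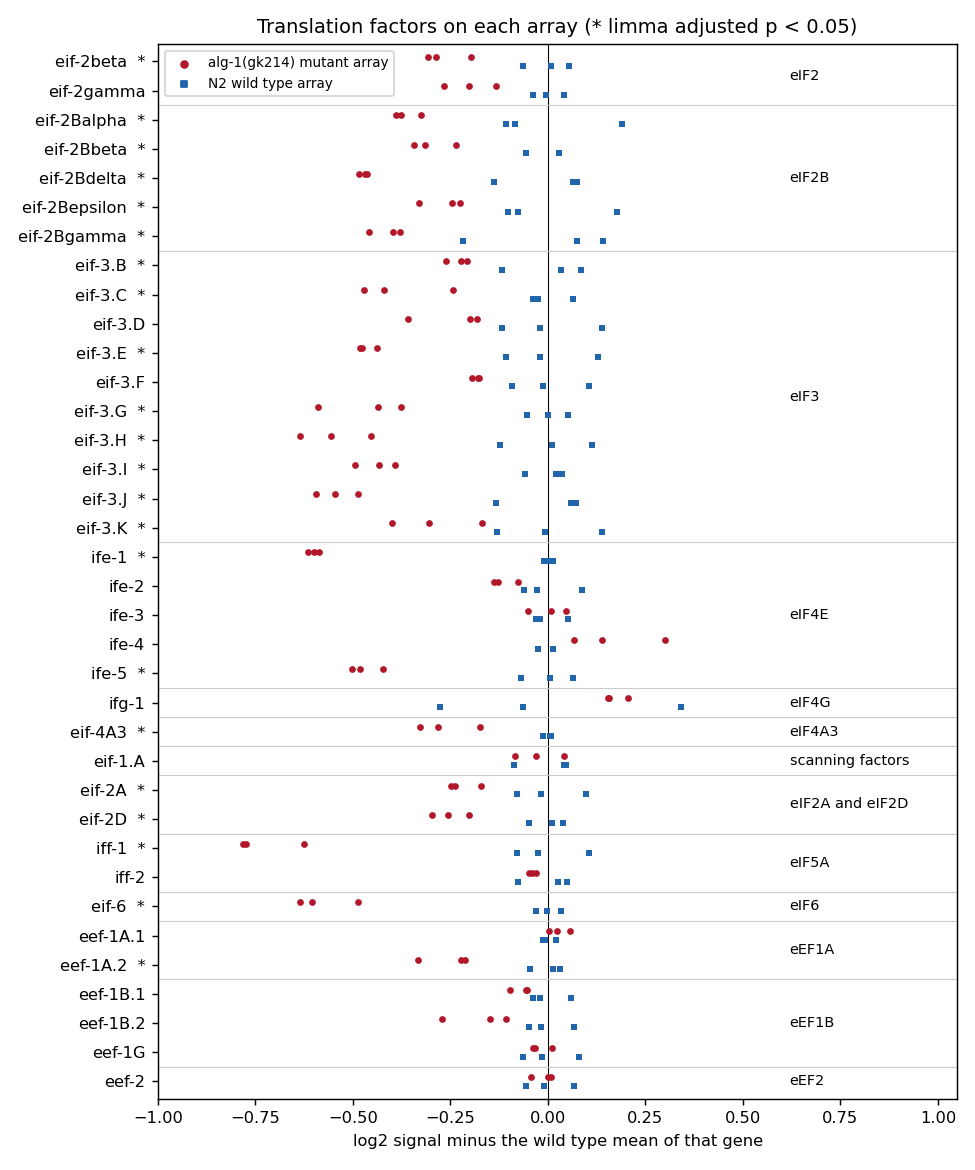
Signal of each factor on each array on the log2 scale, after subtraction of that gene's wild type mean (horizontal axis). Red circles are the 3 mutant arrays, blue squares the 3 wild type arrays, asterisks mark limma adjusted p under 0.05, and horizontal lines part the complexes. Mutant arrays lie to the left for most initiation factors, while most elongation factors at the bottom lie near 0, with eef-1A.2 and eef-1B.2 further to the left.

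These counts depended on how the arrays were scaled. With quantile normalization 23 initiation factors fell and with median centring 19, while centring on hybridization controls moved the count further. The bacterial hybridization controls, which are added to every array, read 8.06 to 8.19 log2 on average on the mutant arrays and 8.20 to 8.30 on the wild type arrays. With each array centred on these controls, the median of all probe sets went from −0.05 to 0.08 log2, and the share of higher calls among all calls from 44% to 68.8%. Under that scaling 11 initiation factors fell and 1 rose, with a median of −0.15, while 10.6% of all genes fell. No elongation factor passed, and their median was 0.09. The same shift applies to every factor, so the spread among them stays. Of the 22 factors that fell, 10 passed under every alternative that kept a probe set of the gene: iff-1, ife-1, ife-5, eif-6, eif-2Bdelta, eif-3.E, eif-3.G, eif-3.H, eif-3.I and eif-3.J.

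**Figure D2:**
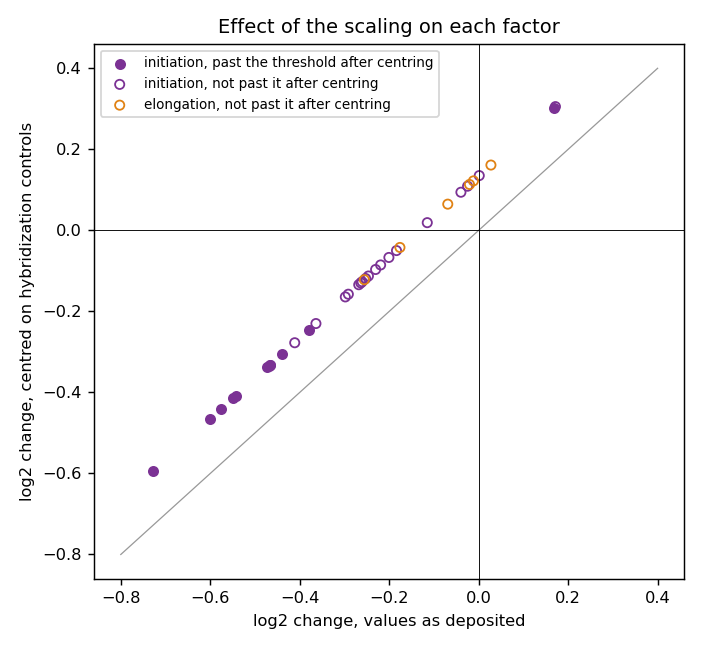
Change of each factor, mutant minus wild type in log2, with the values as deposited (horizontal axis) and after centring on the hybridization controls (vertical axis). Filled points pass limma adjusted p of 0.05 after centring, open points do not, and the grey line marks equal values. All points move up by the same amount, which leaves 11 initiation factors below 0 past the threshold and moves most elongation factors above 0.

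Array values are log2 signals of replicates 1 to 3, mutant first and wild type after, unless stated. Of the cap-binding factors, some fell and some did not pass. Worms have 5 eIF4E genes, and 2 of them fell. The transcript of ife-1, whose protein is a germline eIF4E found on P granules, read 10.61, 10.58 and 10.60 in the mutant against 11.19, 11.19 and 11.21. The groups lay far apart against their spread, with a change of −0.60 (SE 0.0635, adjusted p = 0.000155), or 66% of the wild type level. The germline gene ife-5 read 6.59, 6.65 and 6.57 against 7.13, 7.07 and 6.998, again with no overlap, a change of −0.47 (SE 0.0701, adjusted p = 0.00105).

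The other eIF4E genes did not pass. The signal of ife-3, the worm eIF4E needed for embryonic viability, was 9.34, 9.40 and 9.44 against 9.44, 9.37 and 9.36. The groups overlapped, and the change was 0.00 (SE 0.0681, adjusted p = 0.991). A dimmer ife-3 probe set differed by −0.21 (adjusted p = 0.077). The signal of ife-2 was 8.68, 8.69 and 8.74 against 8.79, 8.76 and 8.91, which do not overlap, with a change of −0.11 (SE 0.0713, adjusted p = 0.258). The somatic gene ife-4 was the one eIF4E gene with all mutant arrays above the wild type, at 7.67, 7.51 and 7.43 against 7.38, 7.38 and 7.34, a difference of 0.17 (SE 0.079, adjusted p = 0.136) that passed only with centring on the hybridization controls (0.30, adjusted p = 0.0395).

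The single eIF4G gene, ifg-1, gave no clear reading. Its brighter probe set read 8.41, 8.41 and 8.46 against 8.59, 8.19 and 7.97, so that the wild type arrays spread on either side of the mutant ones. The difference was 0.17 (SE 0.139, adjusted p = 0.387), and it became 0.34 (adjusted p = 0.0158) without wild type replicate 1. The dimmer ifg-1 probe set fell by 0.48 (adjusted p = 0.00194). Both probe sets name ifg-1 alone, and they differed in direction.

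Among the eIF5A genes, 1 fell and the other did not pass. eIF5A helps the ribosome through difficult stretches and at termination, and it is counted here with initiation by its name. The germline gene iff-1 showed the largest fall of all 36 factors, from 12.40, 12.45 and 12.58 in the wild type to 11.70, 11.85 and 11.70 in the mutant. The groups lay far apart against an SD of 0.088 in the mutant and 0.094 in the wild type (n = 3 each), and the change of −0.73 (SE 0.0807, adjusted p = 0.0002) left 60.4% of the wild type level. The somatic gene iff-2 read 12.90, 12.91 and 12.89 against 12.99, 12.86 and 12.96, which overlap, a change of −0.04 (SE 0.0683, adjusted p = 0.702). Its second probe set differed by −0.08 (adjusted p = 0.439).

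The change of iff-1 minus that of iff-2 was −0.69 log2. For ife-1 minus ife-3 it was −0.60, and for ife-1 minus ife-2 −0.49. The within-array differences of these pairs did not overlap between genotypes. An exact two-sided permutation test of 3 arrays against 3 gave p = 0.1 for each of the 6 pairs of related genes compared here, the smallest it can give, and 0.1 after Benjamini-Hochberg adjustment. Between ife-1 and ife-5 the difference in change was −0.13, between ife-2 and ife-4 it was −0.28, and between eef-1A.1 and eef-1A.2 it was 0.28. The eEF1A difference depended on the probe set and was 0.07 with the mean over all probe sets of each gene.

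**Figure D3:**
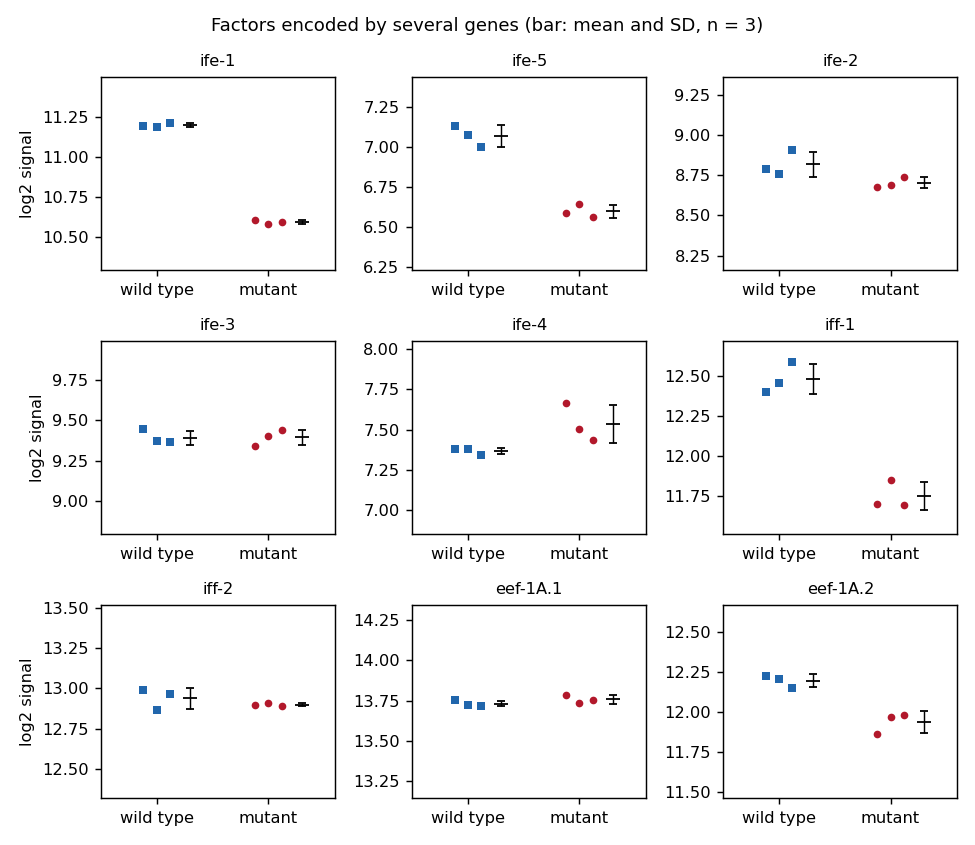
Log2 signal of the eIF4E genes (ife), eIF5A genes (iff) and eEF1A genes (eef-1A) on each array, 1 panel per gene. Squares are wild type arrays, circles mutant arrays and bars the mean ± SD (n = 3). All vertical axes span the same range, and heights are not to be compared between panels because they come from different probe sets. Mutant arrays sit clearly lower for ife-1, ife-5 and iff-1.

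Germline transcripts were lower in the same samples. For comparison, 20.1% of all genes fell and 14.4% rose, or 26.9% and 22.2% of those above the median expression. Of 34 germline markers, 26 fell and 0 rose, with a median of −0.48 log2, and 21 fell with centring on the hybridization controls. The summed linear signal of these markers was 9871 to 10440 on the mutant arrays and 13940 to 14530 on the wild type arrays. Only nos-2 among them lay below the 25th percentile of all values on every array. Of 14 sperm markers measured, 11 fell and 0 rose (median −0.53), and spe-10, spe-27, spe-38 and snf-10 were below that percentile throughout. Their sum was 381.2 to 411 in the mutant and 820.9 to 1025 in the wild type. Of 13 hypodermis markers, 9 rose and 1 fell, with a summed signal of 34400 to 35410 against 17310 to 20180. The largest rises were those of wrt-2 (3.64), mlt-10 (2.74), rol-6 (2.71) and dpy-7 (2.21). The genes elt-1 (0.04), elt-3 (−0.12) and bli-1 (−0.59) did not pass, and grd-10 fell (−0.65). Of 12 neuron markers 4 rose and 0 fell (7973 to 8307 against 6459 to 6637), and 7 rose with centring on the hybridization controls. Muscle and intestine gave medians of −0.05 and 0.04. Of 11 muscle markers 2 fell (18.2%) and 0 rose, and of 12 intestine markers 5 fell (41.7%) and 3 rose (25%). The share of muscle falls was near that of all genes. The share of intestine rises was near that of genes above the median expression. The part of the germline, or of any other tissue, in the falls of ife-1, ife-5, iff-1 and the other factors was not tested.

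Of the 10 eIF3 subunit genes, 8 fell, against 20.1% of all genes and 26.9% of those above the median expression. On all 10 every mutant array lay below every wild type array. The groups did not overlap in 48.7% of all genes and 64.0% of those above the median expression. The median change of the eIF3 subunit genes was −0.41 log2. The steepest were eif-3.H, at 6.49, 6.38 and 6.30 against 6.95, 6.82 and 7.05, and eif-3.J, whose product binds the complex loosely, at 9.66, 9.77 and 9.71 against 10.13, 10.33 and 10.32. Their changes were −0.55 (SE 0.086, limma's adjusted p = 0.00134) and −0.54 (SE 0.0801, adjusted p = 0.00097), which left 68.4% and 68.7% of the wild type level.

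Next came 3 subunits with nearly equal falls. The RNA-binding subunit gene eif-3.G read 9.37, 9.58 and 9.52 against 9.96, 9.90 and 10.01, a change of −0.47 (adjusted p = 0.00202). The signal of eif-3.E was 7.24, 7.25 and 7.29 against 7.62, 7.85 and 7.70, also a change of −0.47 (adjusted p = 0.00201), and its dimmer probe set fell by 0.32 (adjusted p = 0.0415). The gene eif-3.I, for a subunit of the WD-repeat kind, read 6.37, 6.47 and 6.43 against 6.81, 6.90 and 6.89, a change of −0.44 (adjusted p = 0.00134). The groups did not overlap for any of these subunits in the probe sets read. A second eif-3.I probe set had overlapping groups and did not pass (−0.37, adjusted p = 0.0957).

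The core subunit gene eif-3.C read 9.96, 10.14 and 9.91 against 10.36, 10.34 and 10.45, a change of −0.38 (SE 0.0812, adjusted p = 0.0068), while its dimmer probe set differed by −0.03 (adjusted p = 0.859) and the mean over both gave no call. The signal of eif-3.K was 10.05, 10.28 and 10.14 against 10.44, 10.58 and 10.32, a change of −0.29 (adjusted p = 0.0407), and that of the core subunit gene eif-3.B was 9.37, 9.43 and 9.41 against 9.67, 9.52 and 9.72, a change of −0.23 (adjusted p = 0.0448). For eif-3.B and eif-3.K the gap between the groups was narrow, and these calls were lost on leaving out any single array but wild type replicate 2 (eif-3.B), or mutant replicates 1 and 3 and wild type replicates 1 and 2 in turn (eif-3.K). The remaining subunits had no overlap of the groups but did not pass. The gene eif-3.D read 10.47, 10.45 and 10.29 against 10.79, 10.63 and 10.53 (−0.25, adjusted p = 0.0633), and eif-3.F read 10.91, 10.91 and 10.89 against 11.07, 11.19 and 10.995 (−0.18, adjusted p = 0.0888). A second eif-3.D probe set fell by 0.30 (adjusted p = 0.0177). That of eif-3.F differed by −0.10 (adjusted p = 0.369), with overlapping groups. Between 6 and 9 of the 10 subunits fell with 1 array left out, and 6 fell with centring on the hybridization controls.

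All 5 eIF2B genes fell, against 20.1% of all genes and 26.9% of those above the median expression. The steepest was eif-2Bdelta, of the regulatory part of the complex, at 6.27, 6.27 and 6.25 against 6.60, 6.81 and 6.80, a change of −0.47 (SE 0.0788, limma's adjusted p = 0.00188). In the catalytic part, eif-2Bgamma read 8.69, 8.67 and 8.61 against 9.14, 9.21 and 8.85, a change of −0.41 (SE 0.0988, adjusted p = 0.0116). The groups lay apart in each case, with the wild type arrays the more scattered.

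The regulatory gene eif-2Balpha read 9.09, 9.15 and 9.10 against 9.39, 9.37 and 9.67, a change of −0.36 (adjusted p = 0.0142). The regulatory gene eif-2Bbeta read 8.53, 8.64 and 8.56 against 8.91, 8.82 and 8.91, a change of −0.30 (adjusted p = 0.0101). The catalytic gene eif-2Bepsilon read 7.67, 7.70 and 7.59 against 8.10, 7.85 and 7.82, a change of −0.27 (adjusted p = 0.0476). The call for eif-2Bepsilon was lost on leaving out any single array but wild type replicate 3. Of the 5 genes, 2 fell without mutant replicate 3, 3 without mutant replicate 1, and 1, eif-2Bdelta, with centring on the hybridization controls.

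Of the eIF2 subunits, eif-2beta read 9.94, 10.05 and 9.96 against 10.19, 10.26 and 10.30, a change of −0.26 (SE 0.0709, limma's adjusted p = 0.0194). The GTP-binding subunit gene eif-2gamma read 10.41, 10.48 and 10.35 against 10.61, 10.57 and 10.65, a difference of −0.20 (SE 0.0699, adjusted p = 0.0549), with no overlap of the groups, and did not pass. Factors that can bring an initiator tRNA without eIF2 were also lower by a similar amount. The gene eif-2A read 10.34, 10.26 and 10.27 against 10.43, 10.49 and 10.60, a change of −0.22 (adjusted p = 0.0485), and eif-2D read 7.84, 7.78 and 7.74 against 7.99, 8.08 and 8.05, a change of −0.25 (adjusted p = 0.0195). The calls for eif-2beta, eif-2A and eif-2D were each lost without mutant replicate 3 or wild type replicate 2 and without at least 1 other array. None of these falls passed with centring on the hybridization controls.

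The gene eif-6, whose product keeps the large ribosomal subunit from joining early and acts in its maturation, had one of the firmest falls. It read 10.12, 10.26 and 10.15 against 10.75, 10.72 and 10.78, a change of −0.58 (SE 0.0711, limma's adjusted p = 0.000361) that left 67.1% of the wild type level. Its second probe set fell by 0.36 (adjusted p = 0.00486). The scanning factor gene eif-1.A read 11.07, 11.14 and 11.02 against 11.15, 11.14 and 11.02, nearly the same values, a change of −0.02 (SE 0.0737, adjusted p = 0.833). Its second probe set fell by 0.26 (adjusted p = 0.0295). The gene eif-4A3 encodes a helicase of the exon junction complex rather than an initiation factor of the cap complex. It was the dimmest of the 36, at percentile 22.2 of expression, with 4.36, 4.21 and 4.25 against 4.54, 4.54 and 4.52, a change of −0.26 (adjusted p = 0.0198). This call was lost without mutant replicate 2, mutant replicate 3 or wild type replicate 2.

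Among the elongation factors, eef-1A.2 alone fell. Its probe set read 11.86, 11.97 and 11.98 against 12.23, 12.21 and 12.15, with no overlap and a change of −0.26 (SE 0.07, adjusted p = 0.0211 in limma). Another eef-1A.2 probe set, with an ending that marks shared probes, differed by 0.10 (adjusted p = 0.299), and the mean over the eef-1A.2 probe sets gave no call. The call was also lost without mutant replicate 1, mutant replicate 2 or wild type replicate 2. The other eEF1A gene, eef-1A.1, read 13.79, 13.73 and 13.76 against 13.75, 13.72 and 13.72, which overlap, a change of 0.03 (SE 0.0643, adjusted p = 0.784). The eEF1A genes are close copies, and eef-1A.1 was read from shared probe sets alone, so the signal of one may include the other.

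The eEF1B complex and eEF2 did not pass. The gene eef-1B.2 read 10.65, 10.77 and 10.82 against 10.99, 10.90 and 10.88, with no overlap, a change of −0.18 (SE 0.0751, adjusted p = 0.106). The gene eef-1B.1 read 12.63, 12.59 and 12.63 against 12.74, 12.64 and 12.66, narrowly apart, a change of −0.07 (SE 0.0668, adjusted p = 0.475). The overlapping values of eef-1G were 12.72, 12.77 and 12.72 against 12.84, 12.69 and 12.74 (change −0.02, adjusted p = 0.857). The translocation factor gene eef-2 read 13.22, 13.21 and 13.17 against 13.20, 13.28 and 13.15, which overlap, a change of −0.01 (SE 0.0685, adjusted p = 0.919).

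These were also among the brightest probe sets on the array. Of the elongation factors, 5 lay above percentile 98 of expression, together with iff-1 and iff-2, a limit chosen after the values were seen. Among all 327 genes above it 16.2% fell and 11.9% rose. The largest fall among the factors, that of iff-1, was measured in this range. Whether bright signal reduced the changes of the elongation factors was not tested.

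By position, 11 of the 36 factors lie on chromosome I and 10 on chromosome II, or 30.6% and 27.8% against 14.5% and 17.6% of all measured genes. Chromosome III holds 6, IV 2, V 4 and X 3 of them.

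Other genes of the translation machinery were read from lists. Their counts stand beside 20.1% falls and 14.4% rises over all genes, or 26.9% and 22.2% above the median expression. Of 6 genes measured from a list of factors under other symbols, 4 fell and 0 rose. These were cif-1 (−0.45, SE 0.0646, limma's adjusted p = 0.000867) and egl-45 (−0.41, adjusted p = 0.0025), both for eIF3 subunits, the eIF4A gene inf-1 (−0.34, adjusted p = 0.00795) and clu-1 (−0.31, adjusted p = 0.0138). Of 8 genes of termination, recycling and related steps, 6 fell and 0 rose, among them skih-2 (−0.44), the ribosome recycling gene abce-1 (−0.47), abcf-1 (−0.44) and the release factor gene erfa-3 (−0.31). Of 5 mitochondrial translation factors, 4 fell and 0 rose, led by the elongation factor G gene gfm-1 (−0.55, adjusted p = 0.000781), then tsfm-1 (−0.42), mrrf-1 (−0.41) and tufm-2 (−0.27). An erfa-3 probe set without a shared ending differed by −0.006 (adjusted p = 0.975), so its fall depended on the probe set. Such a probe set of egl-45 differed by −0.35 (adjusted p = 0.0605). Of the termination and recycling genes 3 of 8 fell without mutant replicate 3, 4 of 8 without mutant replicate 1, mutant replicate 2, wild type replicate 1 or wild type replicate 2, 4 of 8 with the mean over all probe sets of a gene and 2 of 6 without probe sets of shared ending. Without those probe sets 1 of 4 genes from the list of other symbols fell. The calls for clu-1, tufm-2, mrrf-1 and erfa-3 were lost without mutant replicate 1 (clu-1, tufm-2), 2 (clu-1) or 3 (mrrf-1, erfa-3). With centring on the hybridization controls the falls numbered 2 of 6, 3 of 8 and 2 of 5, against 10.6% of all genes.

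Regulators of translation gave 9 falls and 4 rises among 28 measured, or 32.1% and 14.3%. Over all genes these shares were 20.1% and 14.4%, and among genes above the median expression 26.9% and 22.2%. The kinase gene mnk-1, whose mammalian counterparts phosphorylate eIF4E, changed most, from 7.64, 7.47 and 7.83 to 6.44, 6.63 and 6.75, a change of −1.04 (SE 0.112, adjusted p = 0.000167). The deoxyhypusine synthase gene dhps-1, whose product modifies eIF5A, fell by 0.46 (adjusted p = 0.00177), and gcn-1, of the amino acid sensing pathway that acts on eIF2, fell by 0.35 (adjusted p = 0.00557). The gene mxt-1, for an eIF4E-binding protein, rose from 8.51, 8.30 and 8.28 to 8.79, 8.73 and 8.80, with no overlap (0.41, SE 0.0817, adjusted p = 0.00498). The change of mnk-1 was −0.57 in its probe set without a shared ending. Centring on the hybridization controls gave 2 falls (7.14%) and 4 rises among the regulators, while 10.6% of all genes fell. Leaving out mutant replicate 1 gave 4 falls and 2 rises, mutant replicate 2 gave 6 and 2, and mutant replicate 3 gave 5 and 1. Leaving out wild type replicate 2 gave 6 falls and 4 rises.

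Cytosolic ribosomal protein genes gave the lowest share of falls and tRNA synthetase genes an intermediate one. Of 75 ribosomal protein genes, 1 fell (1.33%) and 0 rose, with a median of −0.02 log2. The exception was rpl-11.1 (−0.38, SE 0.0694, limma's adjusted p = 0.00293), which was named after its value was seen. These too are bright, at a median percentile of 99.6. Of 33 aminoacyl-tRNA synthetase genes, 17 fell and 1 rose, with a median of −0.25 log2. With centring on the hybridization controls 5 synthetase genes fell and 3 rose, and the ribosomal median was 0.11. Those 5 falls are 15.2% of the synthetase genes, near the 10.6% of all genes that fell under that scaling. Without mutant replicate 3, 11 synthetase genes fell (33.3%) and 0 rose, while 14.5% of all genes fell. The 1 rise was also lost without mutant replicate 1, mutant replicate 2 or wild type replicate 2. No test of the difference between these families was made.

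**Figure D4:**
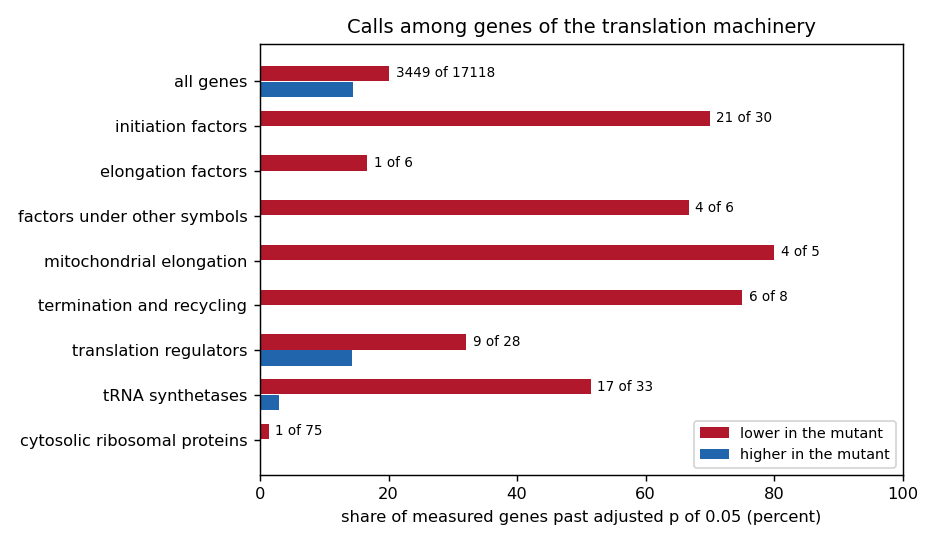
Share of measured genes in each family that passed limma adjusted p of 0.05, in percent (horizontal axis), lower in the mutant in red and higher in blue. Printed numbers give the count of falls among the genes measured. Initiation factors (21 of 30) and genes of termination, recycling and related steps (6 of 8) have high shares of falls against all genes (3449 of 17118). Elongation factors (1 of 6) and cytosolic ribosomal proteins (1 of 75) have low ones.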

How the data were processed

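Values were deposited by the authors as log2 signals, a scale read from their range (3.14 to 14.9), and were used unchanged. Per the submitters' processing notes, Affymetrix Power Tools produced them. Its version and its steps of background correction and normalization were not given in the sources used here. Of 22625 probe sets, 77 controls were left out. Symbols came from the platform annotation, and 20701 probe sets matched a RefSeq gene of assembly WBcel235, used for chromosomes and names. Probe sets with several symbols (887) or none (895) named no gene.

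The difference between genotypes was fitted with limma 3.58.1 (lmFit, eBayes) under R 4.3.3, two-sided, with Benjamini-Hochberg adjustment over 22548 probe sets and a threshold of 0.05. Every adjusted p of a single gene comes from limma. Percent of wild type is 2 raised to the log2 change. The number of arrays limits the precision, and the labels call the replicates independent. The fit was also tested on simulated data.

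The factors, lists and alternatives were chosen with earlier results of these data known. Factors that passed, all ife, iff, ifg and eef genes, and up to 4 members with the smallest p from each other translation list were named.
Alternatives to the scaling, filters, prior, probe set choice, threshold and samples were run, and the closing section gives their effect.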

Additional observations from a re-analysis of the deposited data

How the results depend on the processing

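The alternatives were other scalings (quantile, median, hybridization controls), expression filters (25th percentile or median), another prior, array weights, other probe sets or symbols, a threshold of 0.01, a replicate block and each array left out in turn. The number of initiation factors that fell, 21 of 30, was 11 with centring on the hybridization controls and 11 at a threshold of 0.01. It was 11 of 17 without probe sets ending in _s_at or _x_at, and 12 to 21 with an array left out. Over all genes 14.4% to 21.3% fell with an array left out. This share was 10.6% with the control centring, 12.3% at a threshold of 0.01 and 17.1% without those probe sets. With quantile normalization 23 initiation factors fell, and with median centring 19. The number that rose, 0, was 1 with centring on the hybridization controls and 0 to 1 with an array left out. The number of elongation factors that fell, 1, was 0 with that centring, with the mean over all probe sets of a gene and at a threshold of 0.01, and 0 to 1 with an array left out. The median change of initiation factors was −0.15 with that centring. The median of elongation factors was 0.089 with it, turned from −0.04, and −0.22 without the _s_at and _x_at probe sets, which leaves 2 genes. All calls numbered 4715 without those probe sets and 4767 at a threshold of 0.01, against 7591. With replicate number as a block 20 initiation factors and 1 elongation factor fell, and 7766 probe sets passed. With that block eif-2A (adjusted p = 0.0711) and eif-3.B (adjusted p = 0.0605) did not pass and eif-3.D (adjusted p = 0.037) did, by limma. Same-numbered arrays correlated at 0.21, 0.13 and 0.08 in their deviations from the group means. The last was under 0.1 and the labels name nothing shared, so the numbers were not taken as pairs. Every array but wild type replicate 3 correlated best with its own number, a hint from the data and not the design. For the single factors, 513 values kept their side of the threshold, 64 lost it and 16 gained it, and 18 values of 8 factors that did not pass changed sign. The cause was not tested, other than fewer probe sets or arrays where those were removed. Low signal limits eif-4A3.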
